A study of Mus musculus with 2 samples.

Results

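The cells described here are mouse CD8+ T cells that carry the transcripts of a cell about to divide or dividing. A cell was counted as mitotic when it held at least 1 UMI (unique molecular identifier, 1 captured RNA molecule) of at least 5 of 8 genes: Ccnb1, Cdc20, Cenpf, Cenpe, Aspm, Hmmr, Ube2c and Plk1. Of 27258 kept cells, 9138 met that rule (33.5%), 3766 of 13641 in the library labelled NC and 5372 of 13617 in the library labelled HC. The members were thus chosen by measured values, and everything that separates them from the other cells is a description and not a test.

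The study compared CD8+ T lymphocytes that were or were not electrically stimulated through their matrix, and asked how the stimulus relates to the fate of the cells. There was 1 library per group, both from lymph node and made with version 3.1 of the 3' single-cell kit of 10x Genomics. The labels spell out neither NC nor HC, do not say which library was stimulated, and give no strain, age, sex, culture time, number of animals or voltage, so the libraries are called by their labels. A single library in each group allows no test, and no p-value is given. All intervals are at 95% and cover counting error only, not the spread between animals or cultures.

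A T cell that has met its antigen divides rapidly, and each round passes from DNA replication in S phase through G2 into mitosis. Cyclin B with the kinase Cdk1 drives entry into mitosis, the spindle attaches to chromosomes at their kinetochores, and the anaphase-promoting complex then marks cyclin B and securin for destruction so that the chromosomes separate. Transcripts of this machinery accumulate in late S phase and G2 and are cleared after division, so RNA marks a window wider than mitosis itself.

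The 8 genes of the rule cover these steps. Ccnb1 encodes cyclin B1 and Plk1 a kinase that acts at entry, on centrosomes and on kinetochores. Cenpf and Cenpe act at the kinetochore, Cenpe as a motor protein. Aspm holds spindle poles together and Hmmr binds spindle microtubules. Cdc20 activates the anaphase-promoting complex, and Ube2c is the ubiquitin-conjugating enzyme that works with it.

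Promoters of such genes are known to carry the cell cycle genes homology region (CHR), which the MuvB complex binds through its subunit Lin54, and CCAAT boxes, which NF-Y binds. The members were chosen because these genes are on together, so the promoters of 4 of them with both motifs, 1 without the CHR letters and 1 gene of DNA replication (Mcm5) are shown for comparison. The sequences are from RefSeq on GRCm38.p6 and run 5′ to 3′ on the strand of the gene, from 100 bases before the transcript start to 50 bases from it on. Capitals mark the CHR letters, TTTGAA, and the CCAAT box. Where either lies on the opposite strand, its complement is in capitals.
Cdc20, chr4:118437294-118437443, minus strand: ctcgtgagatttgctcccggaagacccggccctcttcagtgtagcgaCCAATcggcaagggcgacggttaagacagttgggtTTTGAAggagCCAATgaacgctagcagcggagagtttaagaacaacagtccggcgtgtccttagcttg
Aspm, chr1:139454673-139454822, plus strand: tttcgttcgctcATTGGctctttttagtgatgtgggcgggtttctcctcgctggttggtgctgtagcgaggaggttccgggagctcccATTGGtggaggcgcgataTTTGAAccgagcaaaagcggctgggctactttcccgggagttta
Hmmr, chr11:40733388-40733537, minus strand: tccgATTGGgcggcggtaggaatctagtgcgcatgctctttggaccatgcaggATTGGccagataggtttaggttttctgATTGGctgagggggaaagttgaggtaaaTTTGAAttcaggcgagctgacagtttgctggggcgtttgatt
Ube2c, chr2:164769829-164769978, plus strand: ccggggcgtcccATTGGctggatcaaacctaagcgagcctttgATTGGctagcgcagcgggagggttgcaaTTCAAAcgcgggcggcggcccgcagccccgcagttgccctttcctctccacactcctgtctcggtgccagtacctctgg
Ccnb1, chr13:100786437-100786586, minus strand: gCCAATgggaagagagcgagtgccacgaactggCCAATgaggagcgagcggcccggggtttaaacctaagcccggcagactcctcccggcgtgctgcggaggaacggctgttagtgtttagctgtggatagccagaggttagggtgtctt
Mcm5, chr8:75109409-75109558, plus strand: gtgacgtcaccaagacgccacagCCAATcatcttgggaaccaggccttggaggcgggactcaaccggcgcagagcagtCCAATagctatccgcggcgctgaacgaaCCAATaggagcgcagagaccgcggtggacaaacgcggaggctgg

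The CHR letters or their variant TTCGAA, with overlapping matches each counted, were searched on both strands of 300 bases (250 before the start and 50 from it on) and found in 6 of the 8 promoters of the rule genes and in 19.2% of all 32851 promoters in the table. All 6 matches were of the first form and began between 29 bases before the start (Ube2c) and base 31 of the transcript (Plk1). Ccnb1 and Cenpe held neither. CCAAT was found in all 8, against 37.4% of all promoters, and both motifs together in 6 of the 8, against 7.52%. Of the other genes of 7 mitotic lists, 128 of 163 had promoters in the table, and 72 of their 146 promoters (49.3%) held either form of the CHR. Of the 8 promoters of 7 replication genes, among them Mcm5, 0 held either and 6 held CCAAT. On the wider list of 46 G1/S and replication genes, 8 of 44 promoters (18.2%) held either form of the CHR, near the share of all promoters. CCAAT was found in 59.1% of those 44 and in 58.9% of the 146 promoters of the mitotic lists. A match is a description of the letters and not a site shown to be bound.

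Each marker was also left out of the rule in turn, and the others still picked out cells rich in it. Cells with at least 5 of the other 7 genes had 4.31 (Cenpe) to 7.69 (Aspm) times the level of the gene left out in NC, and 3.07 (Cenpe) to 5.89 (Cenpf) times in HC, relative to the remaining kept cells. A UMI of the CD8 co-receptor (Cd8a or Cd8b1) was present in 99.2% of mitotic cells of both libraries (NC 98.9 to 99.5, HC 98.9 to 99.4). No class of cells lacking CD8 was defined here, so the share that free RNA would give was not measured. Cd4 had 0 UMIs in the mitotic cells of both libraries, a count that allows up to 0.0633 (NC) and 0.0502 (HC) UMIs per 1000000 UMIs, a unit called CPM here. The 5 CD4 T cell markers, Cd4 among them, summed to 122 CPM in NC and 166 in HC mitotic cells. Of these, Ctla4 was at 108 and 157 CPM and Izumo1r at 13.7 and 8.07 CPM. The 7 B cell markers summed to 60.6 CPM in NC and 14.0 in HC mitotic cells, with 0 of 7 undetected in NC and 3 of 7 in HC. The 7 macrophage and monocyte markers summed to 2.66 and 2.85 CPM, and the 5 neutrophil markers to 0 and 0.0167 CPM. The 6 NK cell markers summed to 9.28 and 8.24 CPM. The 8 stroma and endothelium markers summed to 36.6 and 38.9 CPM, of which Pecam1 was at 36.3 and 38.6 CPM.

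Mitotic cells made up 27.6% of kept cells in NC (26.9 to 28.4) and 39.5% in HC (38.6 to 40.3). The share was 1.43 times as large in HC (1.38 to 1.48). They carried 40.9% of the UMIs of NC and 52.2% of those of HC. In numbers of rule genes, 902 NC members had 5, 862 had 6, 914 had 7 and 1088 had all 8. In HC the corresponding numbers were 1092, 1322, 1514 and 1444. Just outside the rule, 1021 NC and 947 HC cells had 4 of the genes, with the 8 genes summing to 927 and 921 CPM there against 1203 and 1316 CPM in cells with 5. The number of rule genes therefore changed gradually and had no gap at the threshold.

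**Figure D1:**
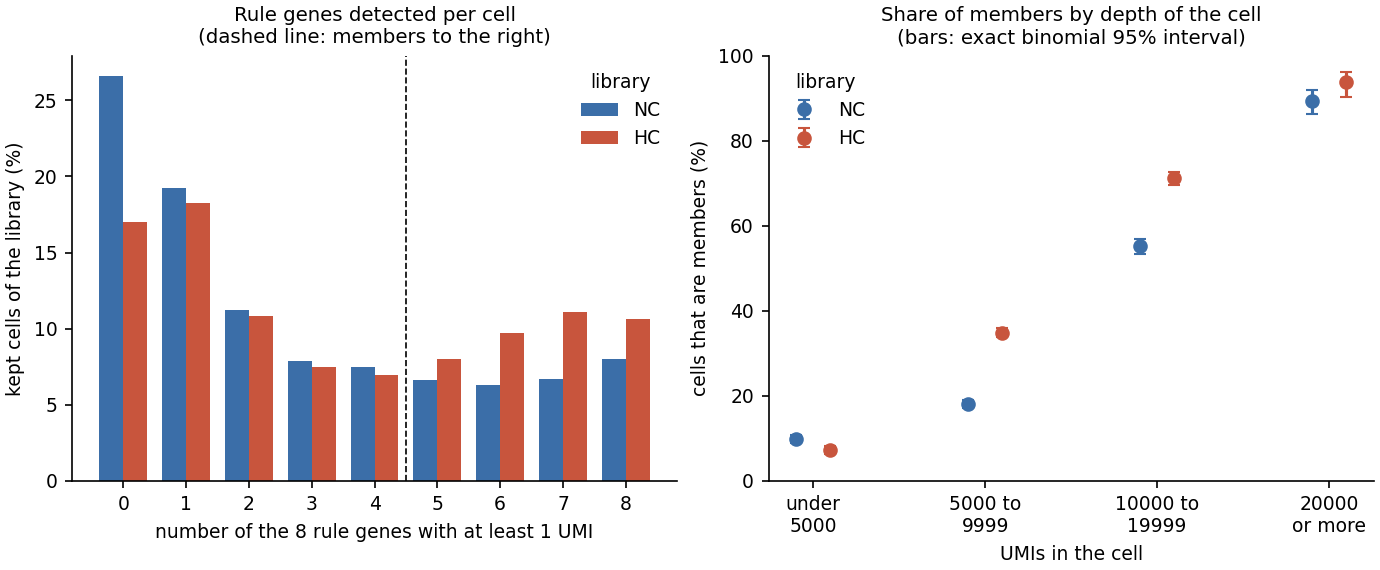
Left, the percentage of kept cells in NC (blue) and HC (red) with 0 to 8 of the rule genes detected, where the dashed line marks the rule of at least 5. Right, the percentage of cells that are mitotic in 4 ranges of UMIs per cell with exact binomial 95% intervals: HC lies above NC from 5000 UMIs upward and below it under 5000 UMIs.

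The rule needs detection, and detection needs depth. Mitotic cells had a median of 11475 UMIs in NC and 10064 in HC, against 6036 and 5985 in the other kept cells. Among cells with under 5000 UMIs the mitotic share was 9.76% in NC (8.79 to 10.8) and 7.26% in HC (6.35 to 8.26). From 5000 to under 10000 UMIs it was 18.0% (17.1 to 19.0) and 34.9% (33.8 to 36.0), and from 10000 to under 20000 UMIs 55.1% (53.4 to 56.8) and 71.2% (69.7 to 72.7). At 20000 UMIs or more it was 89.4% (86.4 to 91.9) and 93.8% (90.4 to 96.2). The mitotic share was thus larger in HC in 3 of the 4 ranges and smaller in the shallowest, and the ratio of HC to NC was 1.94 in the second range and 1.29 in the third.

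Thinning put all cells at equal depth. With each cell thinned to 5000 UMIs, leaving aside 3516 shallower NC and 2920 shallower HC cells, 20.5% of NC (19.7 to 21.3) and 32.3% of HC cells (31.4 to 33.1) met the rule. Without thinning, the same deeper cells gave 33.8% and 48.2%. Doublets were not removed and no caller was run. Of the mitotic cells, 456 in NC (12.1%) and 285 in HC (5.31%) had 20000 UMIs or more. The part of doublets in the results was not tested. Between the libraries 64 barcodes were shared, 15 NC and 19 HC mitotic cells carried one, and 8 were mitotic in both.

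The levels of the rule genes in members of NC and HC are given as a description, since detection of these genes chose the cells in both libraries. Ccnb1 was at 156 CPM (152 to 160) in NC and 157 (154 to 161) in HC. Cdc20 was at 249 and 227 CPM, and Cenpf at 444 and 490 CPM. In the other kept cells Ccnb1 was at 19.1 and 19.2 CPM, Cdc20 at 40.6 and 35.9 CPM and Cenpf at 42.6 and 53.5 CPM. Within mitotic cells the log2 ratio of HC over NC across the 8 genes ran from -0.13 (Cdc20) to 0.16 (Aspm).

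**Figure D2:**
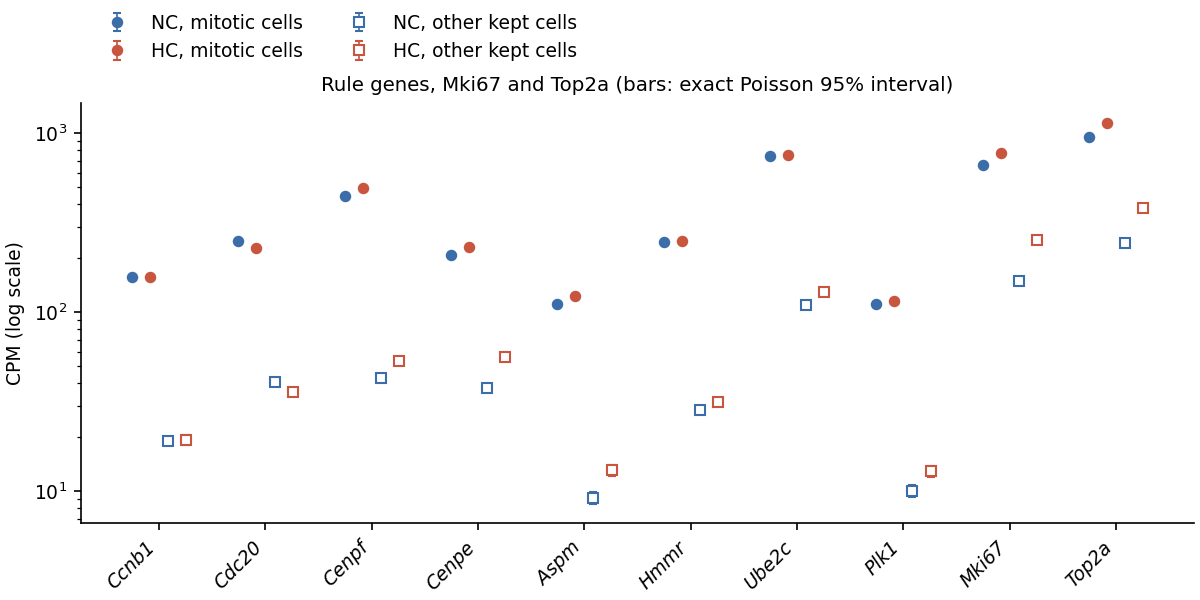
CPM on a log scale of the 8 rule genes, Mki67 and Top2a in mitotic cells (filled circles) and other kept cells (open squares) of NC (blue) and HC (red), with exact Poisson 95% intervals that are mostly smaller than the symbols. For Mki67 and Top2a the gap between HC and NC is wider in the other kept cells than in the mitotic cells.

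Genes outside the rule that act in mitosis were also higher in the members. Across 8558 genes with at least 5 CPM in the cells compared, 443 (5.18%) were at least 1.5-fold higher and 104 (1.22%) at least 1.5-fold lower in mitotic than in other kept cells of both libraries. Because those genes move together with the genes of the rule, nothing is read from these counts beyond the description. Of the 163 genes on the 7 mitotic lists that were not in the rule, 118 were higher in both libraries and 0 lower, with median log2 ratios of 1.34 in NC and 1.13 in HC. Over all genes the medians were 0.03 and 0.02.

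The counts by list that follow leave out the genes of the rule. Regulators of mitotic entry were higher in both libraries in 18 of 20 cases. Cdc25c, a phosphatase that switches Cdk1 on, was at 32.9 CPM in NC and 37.5 in HC mitotic cells, against 4.66 and 6.27 CPM in other cells. Aurka, a kinase of the centrosome, was at 71.5 and 79.1 CPM against 10.8 and 12.5 CPM, and Nek2, a kinase that splits centrosomes, at 33.2 and 30.5 CPM against 4.55 and 5.54 CPM. Cdc25b, a further Cdk1 phosphatase, had log2 ratios of 1.59 in NC and 1.38 in HC. Mybl2 and Lin54, parts of the complexes that switch these genes on, differed less, at 0.69 and 0.38 for Mybl2 and 0.74 and 0.61 for Lin54.

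Genes of the spindle and of cytokinesis were among those with the highest ratios outside the rule. Gas2l3, which links actin and microtubules at the midbody, was at 20.5 CPM in NC and 24.0 in HC mitotic cells, against 2.21 and 2.89 CPM in other cells. That is a log2 ratio of 3.21 in NC and 3.06 in HC. Kif14, a motor of cytokinesis, was at 2.80 and 2.36, and Prc1, which bundles the central spindle, at 2.72 and 2.35. Troap, Arhgap19 and Prr11 were at 2.88 and 2.48, 2.82 and 2.32, and 2.94 and 2.58. In all, 27 of 35 spindle and motor genes and 12 of 21 genes of the chromosomal passenger complex and cytokinesis were higher in both libraries. Birc5 (survivin) of the passenger complex was at 583 and 658 CPM against 145 and 203 CPM, whereas Sept7, a septin, was at 468 and 356 CPM against 369 and 279 CPM.

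At kinetochores and on chromosomes most genes were higher too, and in the destruction machinery fewer were. Of 40 kinetochore and checkpoint genes 35 were higher, and of 23 genes of condensin and chromosome structure 21. Hjurp, which loads the centromeric histone, was at 166 CPM in NC and 208 in HC against 66.0 and 95.9 CPM. Of 17 genes of the anaphase-promoting complex and its partners 6 were higher, and of 13 genes of securin, separase and cohesin 5. Fzr1, the activator that follows Cdc20, had log2 ratios of 1.71 and 1.66, whereas the subunits Anapc2 and Cdc16 had 0.53 and 0.39, and 0.18 and 0.33. Espl1 (separase) was at 2.29 and 1.80, and the cohesin subunit Stag1 at 0.50 and 0.42. Fzr1 and Espl1 thus had larger ratios than the subunits Anapc2, Cdc16 and Stag1. The other subunits are not named here, so nothing is said of the complexes as a whole.

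Transcripts of DNA replication were carried by many mitotic cells. Of the members, 1812 in NC (48.1%) and 2648 in HC (49.3%) also had at least 5 of 8 genes of early replication (Mcm3, Mcm5, Mcm6, Gins2, Uhrf1, Cdc6, Hells and Clspn). They were deeper, at a median of 14590 UMIs in NC and 11822 in HC, than members without those genes, at 8730.5 and 8623. After thinning to 5000 UMIs, 9.30% and 12.6% of the cells that met the mitotic rule also met the replication rule, so the overlap depended on depth. The 46 genes of G1/S and replication summed to 5296 CPM in NC and 5364 in HC members with those genes, against 2810 and 3161 CPM in members without them.

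Compared with cells that met only the replication rule (1809 in NC and 2433 in HC), mitotic cells were higher in 253 genes (2.96%) and lower in 125 (1.46%) in both libraries. Among G1/S and replication genes 22 of 46 were lower and 0 higher. Ung, which removes uracil from DNA, had log2 ratios of mitotic over replicating cells of -2.78 in NC and -3.04 in HC. Without the genes of the rule, 14 of 20 mitotic entry genes, 23 of 35 spindle genes and 21 of 40 kinetochore genes were higher. Those 2 groups of cells were both chosen by expressed genes, which fixes the directions.

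Replication-dependent histone genes were summed highest in mitotic cells that also met the replication rule. The ranking covers those cells, mitotic cells without that rule, cells of the replication rule alone and the remaining cells. Of 35 on the list 30 were counted, and 24 were higher in mitotic than in other kept cells of both libraries. Against cells of the replication rule 13 of the 30 were higher in NC and 2 in HC. Over all 8558 genes, 337 in NC and 325 in HC were higher in that comparison. Summed, they stood at 2407 CPM in NC and 2652 in HC mitotic cells, 1871 and 2352 CPM in cells of the replication rule, and 584 and 760 CPM in the remaining cells. Mitotic cells that also met the replication rule stood at 2748 and 2917 CPM. Those that did not stood at 1868 and 2287 CPM, no higher than cells of the replication rule alone. Histone genes are near-identical copies whose reads the counting may not separate, and most of their RNA lacks the poly(A) tail that the kit captures, so single members are uncertain.

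With more rule genes detected, the balance of the programmes shifted. From 5 to 8 rule genes the G1/S and replication genes went from 5053 to 3584 CPM in NC and from 5344 to 3583 CPM in HC. The mitotic genes outside the rule went from 25700 to 33749 CPM in NC and from 27280 to 31935 CPM in HC. Histones were highest in NC cells with 7 rule genes (2648 CPM) and in HC cells with 6 (3017 CPM). The median depth was larger with more genes too, from 8199.5 to 14372 UMIs in NC and from 8525.5 to 12058 in HC, and its part in the pattern was not tested.

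**Figure D3:**
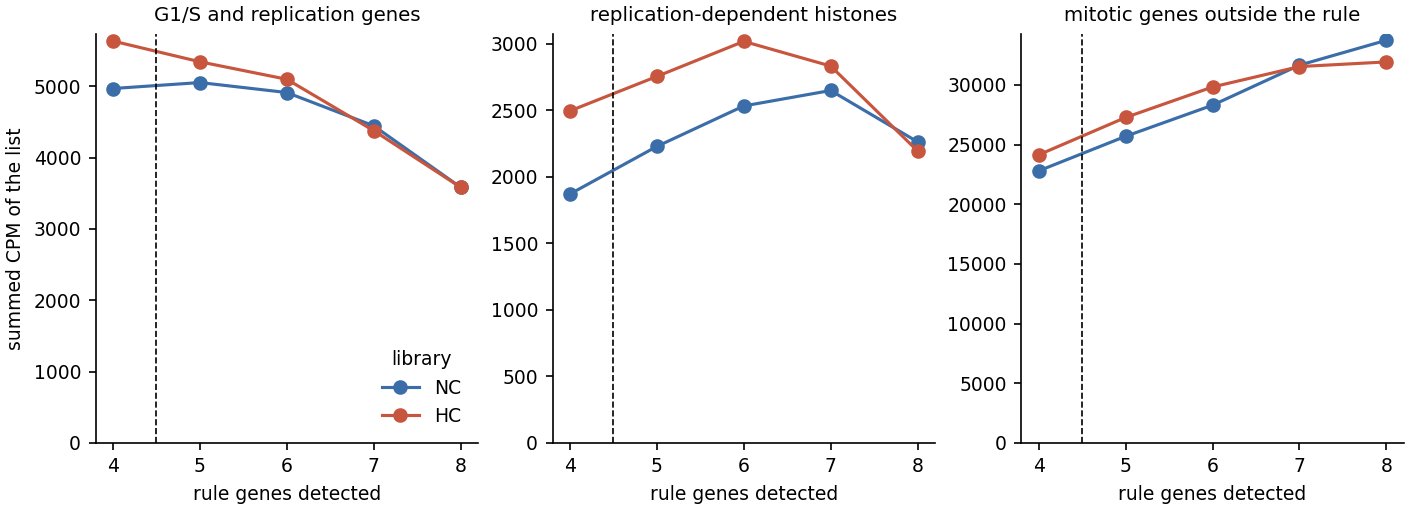
Summed CPM of 3 gene lists in cells with 4 to 8 rule genes detected, NC in blue and HC in red, where cells with 4 (left of the dashed line) are not members. G1/S and replication genes are lowest at 8 rule genes, and mitotic genes outside the rule are highest there.

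Genes lower in mitotic than in other kept cells included Tcp11l2, Mxd4 and Il7r and some interferon-stimulated genes. Tcp11l2 was at 10.3 CPM in NC and 8.17 in HC mitotic cells against 36.1 and 29.6 CPM, with log2 ratios of -1.81 and -1.86. Mxd4, a partner of Max that opposes Myc, was at 101 and 84.6 CPM against 215 and 165 CPM. Il7r, through which interleukin-7 sustains resting T cells, was at 162 and 191 CPM against 305 and 307 CPM. It is on the naive and homing list of 15 genes. Against cells of the replication rule, the lowest log2 ratio on that list was -0.16 in NC and -0.09 in HC. The medians were 0.28 and 0.19. Among 15 interferon-stimulated genes counted, 4 were lower and 0 higher, against 1.22% and 5.18% of all genes. Iigp1 was at -1.64 and -1.27. Samhd1, which breaks down DNA building blocks and is on that side as well, was at -1.25 and -0.88. Against cells of the replication rule, Iigp1 stood at 0.19 and -0.01 and Samhd1 at -0.18 and -0.20, so for these 2 genes the levels were near each other. Of the 15 interferon-stimulated genes, 13 in NC and 11 in HC were above 0 in that comparison, at medians of 0.32 and 0.19. At least 1.5-fold higher in both libraries was 1 of them, and 0 were lower, against 2.96% and 1.46% of all genes.

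A further list held inhibitors of the cell cycle together with D cyclins and kinases of G1. Of its 17 counted genes 4 were higher in mitotic cells of both libraries and 1 was lower, against 5.18% and 1.22% of all genes. Cdkn2c, an inhibitor of the kinases that act in G1, was at 52.8 CPM in NC and 41.9 in HC against 15.1 and 13.9 CPM in other cells. Ccng2 was at 45.5 and 56.7 CPM against 29.8 and 36.0 CPM. The other two higher genes, chosen after their values were seen, were Cdkn2d (log2 ratios of 0.84 and 0.92) and Rbl1 (1.04 and 0.76). Ccnd2, a cyclin of G1 also chosen in that way, was the lower one, at -0.79 and -0.62, so no inhibitor on the list was lower in both libraries.

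Between mitotic and other cells, lists outside the cell cycle varied in how many genes differed. In the T cell receptor pathway 0 of 22 genes were past 1.5-fold in both libraries, as were 0 of 17 glycolysis, 0 of 14 hypoxia, 0 of 25 ribosome assembly and 0 of 13 mitochondrially encoded genes. Cd8b1 had log2 ratios of -0.35 and -0.22, Cd3e of -0.06 and -0.03, and Gzmb of 0.40 and 0.19. Of 14 cytotoxic genes 1 was higher in both, Gzma, at 0.77 and 0.66, and of 7 cytokine and chemokine genes 2 were lower, Ccl3 at -0.77 and -0.97 and Ccl4 at -0.67 and -0.81. Among 22 genes of cholesterol and fatty acid synthesis 7 were higher in both and 0 lower. Over all 8558 genes 5.18% were higher and 1.22% lower in both, and 1 of 14 is near the first share.

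Between HC and NC, mitotic cells differed in metabolism, chemokines and ribosome assembly. Their levels of the mitotic machinery were nearly equal. Detection of mitotic genes chose the cells in both libraries, so that near-equality is a description only. Of 8651 genes with at least 5 CPM in the mitotic cells of either library, 178 (2.06%) passed 1.5-fold on the HC side and 154 (1.78%) on the NC side, with a median log2 ratio of -0.02. In the other kept cells the counts were 197 (2.27%) and 119 (1.37%) of 8689, with a median of -0.04. The NC count was 100 in mitotic cells with 10000 to under 20000 UMIs. These ratios compare 2 libraries and have no replicate check.

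None of the 163 mitotic genes outside the rule was 1.5-fold apart between the libraries in mitotic cells, and their median log2 ratio was 0.05. In the other kept cells 14 of the same 163 passed it towards HC and 0 towards NC, at a median of 0.24. The rule set the 2 kinds of cell apart by genes that move with these, so nothing is read from that contrast. Mki67, a marker of dividing cells, was at 658 CPM (651 to 665) in NC and 768 (761 to 775) in HC mitotic cells, a log2 ratio of 0.22, against 0.77 in the other cells. Top2a, which untangles DNA before chromosomes separate, was at 951 and 1139.9 CPM, a log2 ratio of 0.26 against 0.65. By list, the medians in mitotic cells ran from 0.03 to 0.08 across the 7 mitotic lists, and in other cells from 0.14 to 0.36.

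Replication genes and histones had the same pattern, which is likewise given as a description. The 46 G1/S and replication genes had a median log2 ratio of HC over NC of 0.03 in mitotic cells and 0.35 in other kept cells. Ung was the only one past 1.5-fold in mitotic cells, at -0.81, and stood at -0.44 in those with 10000 to under 20000 UMIs. The histones had a median of 0.20, with 0 of 30 past 1.5-fold, against 0.47 with 13 of 27 higher in HC in other cells. Hmgn2, a nucleosome-binding protein, was at 272 CPM in NC and 182 in HC mitotic cells (-0.58, -0.62 to -0.54).

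**Figure D4:**
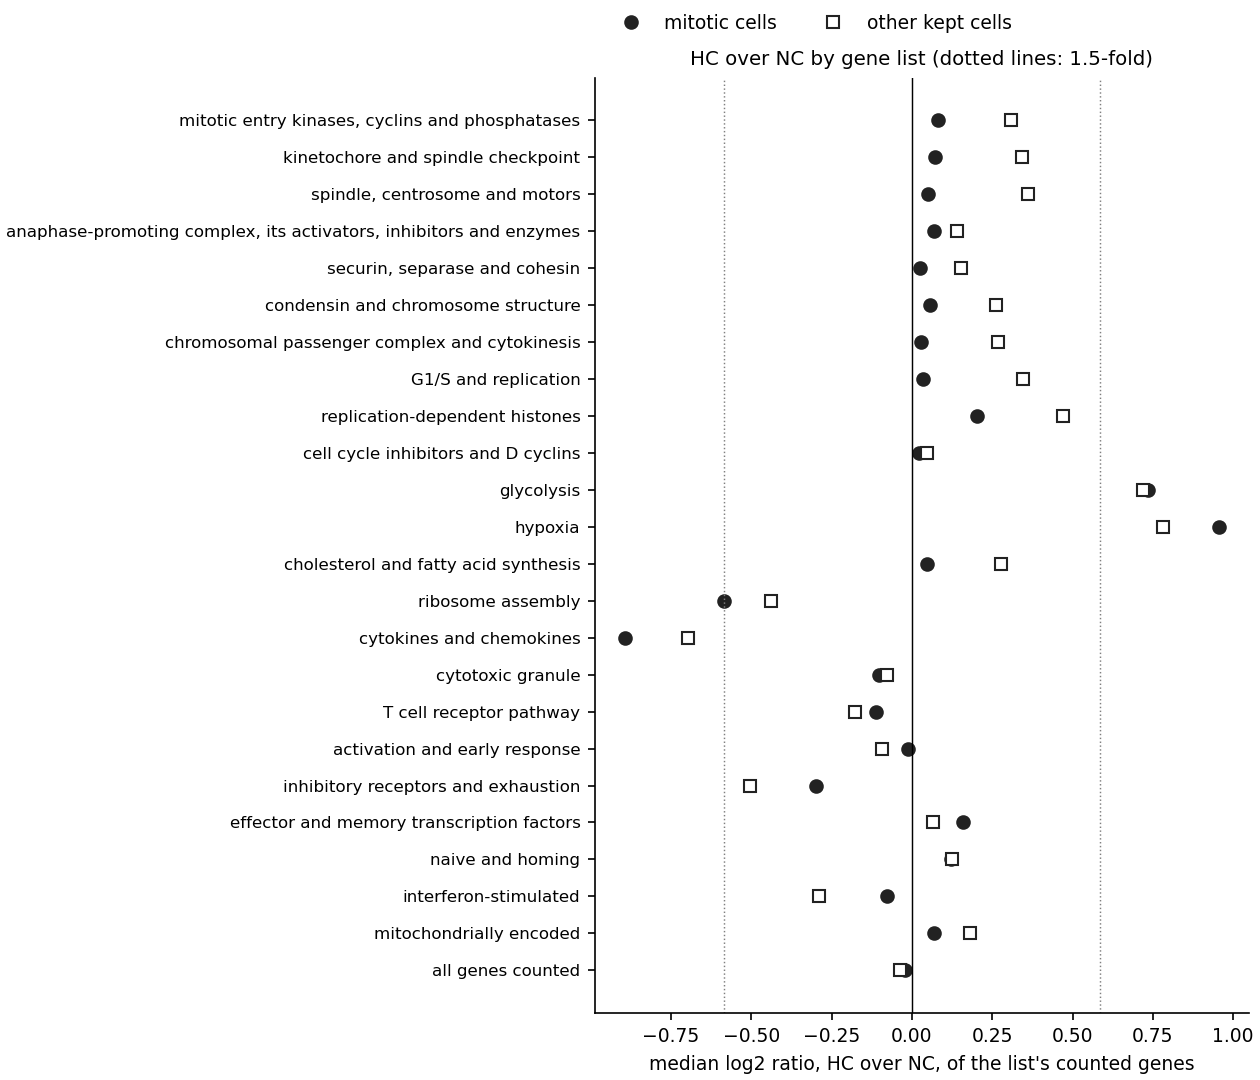
Median log2 ratio of HC over NC for each gene list in mitotic cells (filled circles) and other kept cells (open squares), with dotted lines at 1.5-fold. The 7 mitotic lists and the G1/S list lie near 0 in mitotic cells and to its right in other cells. Mitotic genes set these kinds of cell apart. Histones lie at 0.20 and 0.47, and cell cycle inhibitors and D cyclins near 0 in both. Glycolysis and hypoxia lie past 1.5-fold in both, and ribosome assembly and cytokines lie left of 0 in both.

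Genes of low oxygen and glycolysis, which the medians of the other kept cells show as well, were higher in HC mitotic cells. Of 18 hypoxia genes 14 had at least 5 CPM in mitotic cells of both libraries, and 12 of these passed 1.5-fold towards HC and 0 towards NC, with a median log2 ratio of 0.86. Another gene, Vegfa, entered through HC alone, where it was higher, and with it the count was 13 of 15 and the median 0.96, against 0.78 in other cells. Of 17 glycolysis genes 13 were higher and 0 lower, with a median of 0.74 against 0.72. Bnip3, which directs mitochondria to degradation, was at 9.88 CPM in NC and 47.9 in HC mitotic cells. Ankrd37, a target of the hypoxia-inducible factor, was at 15.4 CPM (14.3 to 16.6) and 46.4 CPM (44.7 to 48.2). The intervals were far apart for both, in log2 2.28 (2.14 to 2.42) and 1.59 (1.47 to 1.71).

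The lactate exporter Slc16a3 was at 20.5 CPM (19.2 to 21.8) in NC and 66.8 (64.8 to 68.9) in HC. The glycolytic enzymes Aldoa and Tpi1 were at 338 and 837 CPM, and at 258 and 621 CPM. Aldoc, a further aldolase, was at 5.93 and 33.4 CPM, the highest ratio among named genes at a log2 of 2.49 (2.31 to 2.68). Slc2a1, the glucose transporter, stood at 11.8 and 24.5 CPM, and Egln3, an oxygen-sensing hydroxylase, at 10.7 and 28.7 CPM. Reads of Eno1b, at 22.6 CPM in HC, may be shared with its near-identical relative Eno1. All of these were higher in HC. At matched depth the glycolysis genes of mitotic cells summed to 4821 CPM in NC and 8474 in HC from 5000 to under 10000 UMIs, and to 5444 and 10775 CPM from 10000 to under 20000 UMIs.

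Chemokines made by activated CD8+ T cells were lower in HC mitotic cells. Xcl1, which attracts cross-presenting dendritic cells, was at 268 CPM (263 to 272) in NC and 24.3 (23.1 to 25.6) in HC. Ccl4 was at 78.0 and 14.6 CPM and Ccl3 at 22.7 and 3.53 CPM, log2 ratios of -2.41 and -2.68 against -3.46 for Xcl1. Of 14 cytokine and chemokine genes 6 had at least 5 CPM in mitotic cells of both libraries, and 3 of these passed 1.5-fold towards NC and 0 towards HC, with a median of -0.50. Another 3, among them Ccl3 and Ifng, entered through NC alone, where they were higher. With them the count was 6 of 9 and the median -0.89, against 6 of 9 and -0.70 in the other kept cells. In mitotic cells chosen after thinning to 2000 UMIs the median was -0.23. Ifng, the interferon that activates macrophages, was low in both, at 6.41 and 1.91 CPM (-1.75), and stood at 0.45 after that thinning, where few UMIs remained.

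Ribosome assembly genes were lower in HC as well. Of 25 genes 12 passed 1.5-fold towards NC and 0 towards HC. They had a median of -0.58, against 4 and a median of -0.44 in other cells. Nop2, a methyltransferase of ribosomal RNA, was at 22.4 CPM (21.1 to 23.8) in NC and 11.3 (10.5 to 12.2) in HC, and Nop16 at 34.4 and 19.1 CPM. Mdn1, which strips factors from the large subunit, was at 28.4 and 14.2 CPM. After thinning to 2000 UMIs Nop2 stood at -0.37 and Nop16 at -0.08, under 1.5-fold. Srm, which makes spermidine, was at 69.8 and 32.5 CPM, a log2 ratio of -1.10 (-1.18 to -1.02).

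Effector genes split. Gzma and Gzmb, proteases that kill target cells, were at 9.31 CPM (8.46 to 10.2) and 257 CPM (253 to 262) in NC and at 25.2 CPM (23.9 to 26.5) and 396 CPM (391 to 401) in HC mitotic cells. They were the 2 of 14 cytotoxic genes past 1.5-fold, Gzma at 1.44 and Gzmb at 0.62. Gzmb stood at 0.48 in cells with 5000 to under 10000 UMIs. Prf1, the pore-forming partner, was at 11.8 and 9.19 CPM (-0.36). Il2ra, which gives the interleukin-2 receptor its high affinity, was 1.64-fold higher in HC (log2 0.71), but at 0.10 after thinning to 2000 UMIs.

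Transcription factors and surface receptors differed gene by gene. Prdm1, which drives terminal differentiation, was at 2.85 and 6.38 CPM (1.16), Bhlhe40 at 0.77 and Batf3 at 0.68, and Tox, linked to exhaustion, at -0.75. Bhlhe40 stood at 0.52 in cells with 5000 to under 10000 UMIs, and Batf3 at 0.41 and Tox at -0.32 after thinning to 2000 UMIs. Tcf7, which preserves self-renewal, was at 201 and 193 CPM (-0.06). Of 15 effector and memory factors with at least 5 CPM in both libraries 3 were past 1.5-fold towards HC and 1 towards NC, and another 2, Prdm1 and Nfil3, entered through HC alone, where they were higher. Cd160 was at 85.5 and 35.4 CPM, Crtam, an adhesion receptor, at 18.9 and 5.76 CPM, and Pdcd1 (PD-1) at 32.0 and 26.0 CPM. Cd8a was at 317 CPM (312 to 322) in NC and 229 (226 to 233) in HC, while Cd8b1 was at 489 and 490 CPM.

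**Figure D5:**
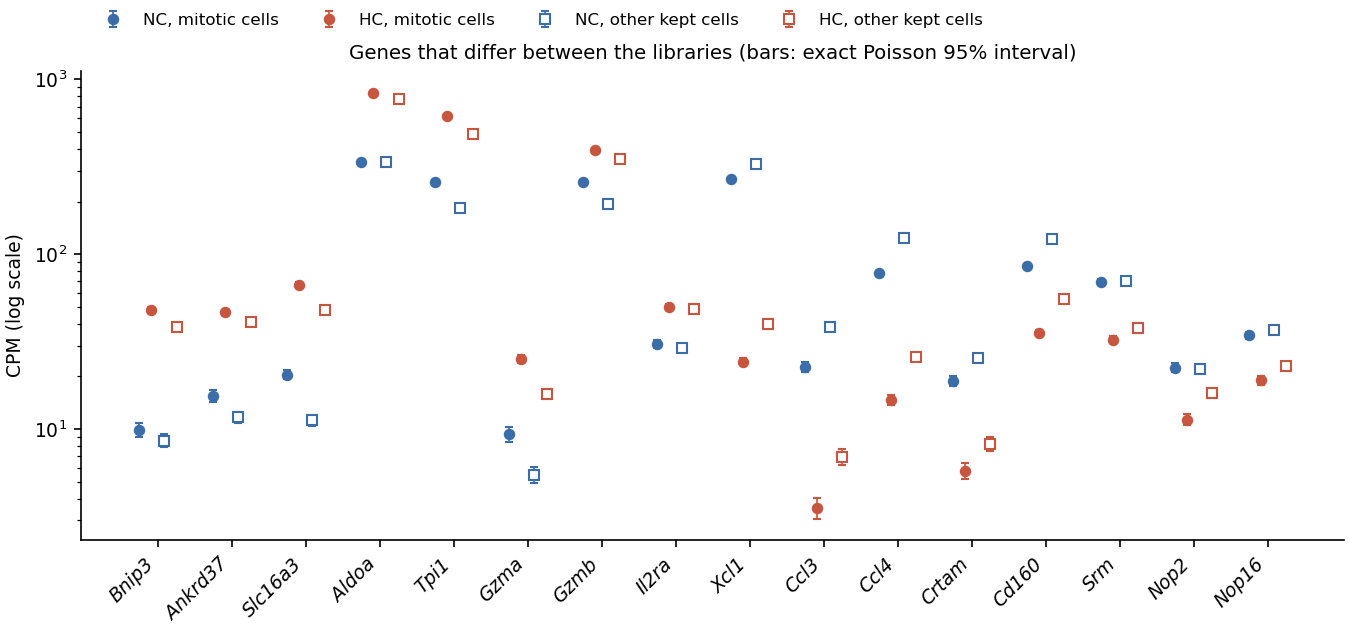
CPM on a log scale of 16 named genes in mitotic cells (filled circles) and other kept cells (open squares) of NC (blue) and HC (red), with exact Poisson 95% intervals. For all 16 genes HC and NC are ordered the same way in mitotic and in other cells.

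The ratio of HC over NC itself was at least 1.5-fold larger in mitotic than in other kept cells for 11 of 8651 genes (0.127%) and smaller for 23 (0.266%). No gene was at least 1.5-fold apart in opposite directions in the 2 kinds of cell, out of 8487 counted. Igkc, an antibody light chain gene, had the largest gap, at -6.96 against -0.32. It was at 43.9 CPM in NC and 0.352 in HC mitotic cells, 2082 and 21 UMIs. Of the NC UMIs, 74.8% came from 1 cell and 96.2% from 11 mitotic cells with at least 3 of 7 B cell markers, against 0 such cells in HC. The counts of genes past 1.5-fold without those cells were 179 towards HC and 155 towards NC.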

How the data were processed

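Single-cell RNA was measured in mouse CD8+ T cells of 2 libraries, 1 per group. The authors deposited raw UMI counts of 32285 genes for each barcode, made with Cell Ranger 6.1.2 per the file headers. In the submitters' processing notes the tools are Seurat 3.2.3 and Cell Ranger 5.0.0, and the build is mm10. The annotation release is not given in the sources used here.

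Cells were kept with 500 genes or more, 1000 UMIs or more and no more than 10% of UMIs from genes whose symbols start with mt-. Mitotic cells had at least 1 UMI of at least 5 of 8 genes, and the comparison cells of DNA replication at least 5 of 8 other genes without being mitotic. Depth was 47391161 UMIs over NC and 59708522 over HC mitotic cells, so that the limit a count of 0 allows, set at 3 counts, was 0.0633 and 0.0502 CPM.

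UMIs were summed per library and kind of cell and divided by the total (CPM, per 1000000). Log2 ratios had no pseudocount, except that a count of 0 was set to the limit of 3 counts. Genes with at least 5 CPM in either sum were counted, and called at 1.5-fold. Against cells of the replication rule, the genes counted were those of mitotic against other kept cells, whose sums set the floor. CPM carry exact Poisson, shares exact binomial (Clopper-Pearson) and ratios exact binomial intervals at 95%. The interval of the ratio of shares is a normal approximation on the log scale. With 1 library per group no test was run. Where 2 identifiers shared a symbol (Aldoa), the one with more UMIs was used.

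The members, the 23 gene lists, the 11 marker lists and the settings were chosen with earlier results of these data known. Named genes were the rule genes, a set of T cell genes, the 12 highest and 12 lowest ratios among genes with at least 20 CPM for HC over NC and for mitotic over other cells (mitochondrial, ribosomal protein, predicted and receptor segment genes left out), and up to 4 of each list, 144 in all. Others are rule, marker or replication genes or are marked as chosen once values were known.

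Promoters were matched by symbol to a RefSeq table on GRCm38.p6. The summing and ratio steps were tested on simulated data of HC over NC in mitotic cells with 8571 genes: 100% of genes altered 2-fold or 4-fold and 50% of those altered by exactly 1.5-fold were called, as were 0 of 8371 unaltered genes. The simulated counts held Poisson counting error only, so calls that spread between cells or libraries would give could not show. Alternatives covered the rule, thinning to 5000 or 2000 UMIs, the cell filters, scaling with TMM (edgeR 4.0.16) or median-of-ratios factors (DESeq2 1.42.0), cell weights, the CPM floor and the fold. Work was done in Python 3.11.15 (numpy 2.4.6, scipy 1.17.1, pandas 2.3.3, matplotlib 3.10.9) and R 4.3.3.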

Additional observations from a re-analysis of the deposited data

Results flagged for a closer look

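For 4 named genes the log2 ratio of HC over NC pointed one way in mitotic cells and the other way in the other kept cells. The difference was not tested, since there was 1 library per group, and no gene among them was 1.5-fold apart in either kind of cell. Samhd1 was at 158 CPM in NC and 192 in HC mitotic cells and at 376 and 353 CPM in other cells, so that the ratio was larger in mitotic cells by 0.37. Slfn1, a member of the Schlafen family, was at 43.4 and 46.2 CPM in mitotic and at 92.5 and 78.1 CPM in other cells, a gap of 0.33. The mitotic genes Troap (31.8 and 29.5 CPM in mitotic, 4.33 and 5.28 CPM in other cells) and Nek2 (33.2 and 30.5 CPM, 4.55 and 5.54 CPM) had the opposite pattern, with gaps of -0.39 and -0.41.

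Some barcodes outside the kept cells also met the mitotic rule. They were 23 of 1157 left-out barcodes in NC (1.99%, 1.26 to 2.97) and 36 of 1878 in HC (1.92%, 1.35 to 2.64), all of them with more than 10% mitochondrial UMIs. The left-out barcodes had a median of 916 UMIs in NC and 826 in HC.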

How the results depend on the processing

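The mitotic share moved with the rule, the depth and the cell filter. With at least 4 of 8 genes it was 35.1% in NC and 46.4% in HC (ratio 1.32), with at least 6 of 8 genes 21.0% and 31.4% (1.497), after thinning to 5000 UMIs 20.5% and 32.3% (1.57), and after thinning to 2000 UMIs 5.37% and 7.85%. With at most 5% mitochondrial UMIs it was 29.6% and 45.3% (1.53), and without cells above the 98th percentile of UMIs 26.2% and 38.3%. In cells with 5000 to under 10000 UMIs it was 18.0% and 34.9% (1.94), and in cells with 10000 to under 20000 UMIs 55.1% and 71.2% (1.29). It was higher in HC under each of these, though not among cells with under 5000 UMIs.

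Within mitotic cells, genes higher in HC and higher in NC numbered 894 and 691 after thinning to 2000 UMIs, where fewer UMIs remained, 66 and 74 with a floor of 20 CPM, 428 and 270 with a floor of 1 CPM, and 49 and 16 at 2-fold. The NC count was 100 in cells with 10000 to under 20000 UMIs. The cause was not tested. Genes higher in mitotic cells of both libraries numbered 289 with a floor of 20 CPM and 218 at 2-fold. Genes lower there numbered 64 with at least 6 of 8 genes, 163 after thinning to 2000 UMIs, 36 with a floor of 20 CPM, 207 with a floor of 1 CPM, 8 at 2-fold and 178 in cells with 5000 to under 10000 UMIs. TMM and median-of-ratios factors shifted log2 ratios by at most 0.02. Of 44 named genes past 1.5-fold between HC and NC, 30 stayed past it under all alternatives run and 14 did not in at least 1, and Ifng and Nr4a3 turned to 0.45 after thinning to 2000 UMIs. Of 3 list medians past 1.5-fold, those of glycolysis and hypoxia stayed past it.

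The depth bands, the S phase split, and the sets without B cell marker cells or shared barcodes were added after the data were seen. No paired analysis was possible because there was 1 library per group, and leaving out a replicate was not possible.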

Other observations

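Genes of naive cells, interferon responses and early activation had no common direction between HC and NC mitotic cells. Of 15 naive and homing genes 0 were past 1.5-fold towards HC and 1 towards NC, Itgae, the integrin of tissue-resident T cells, at 16.4 CPM in NC and 9.83 in HC. Cxcr4, a chemokine receptor, was at 11.0 and 15.5 CPM. Cxcr4 was also the 1 gene of that list higher in mitotic than in other cells of both libraries (log2 ratios of 1.23 in NC and 0.74 in HC). Lower there were 2 of the 15, and over all genes 5.18% were higher and 1.22% lower. Of 15 interferon-stimulated genes 0 were past 1.5-fold, with a median log2 ratio of -0.08 in mitotic and -0.29 in other kept cells. Over the 13 of them with at least 5 CPM in mitotic cells of both libraries the median was 0.06. Of 16 activation and early response genes with at least 5 CPM in both libraries 1 was higher in HC and 2 in NC. Another 2 entered through NC alone, where they were higher: Nr4a3 at 5.89 and 3.35 CPM, whose log2 ratio of -0.81 was -0.10 after thinning to 5000 UMIs and 0.45 after thinning to 2000 UMIs, and Egr2 at 5.38 and 2.85 CPM.

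H2-Ab1, a chain of MHC class II, which presents antigen to helper T cells, was at 9.90 CPM in NC and 43.5 in HC mitotic cells and at 8.82 and 32.9 CPM in other cells. Cd74, the chaperone of MHC class II, chosen after its values were seen, was at 14.8 CPM in NC mitotic cells and lower in HC, at a log2 ratio of -2.21, where NC held 11 mitotic cells with at least 3 of 7 B cell markers and HC 0. The 6 dendritic cell markers summed to 1.54 and 1.86 CPM and the 7 B cell markers to 60.6 and 14.0 CPM there. Without the cells with at least 3 B cell markers the log2 ratio of H2-Ab1 was 2.29, against 2.14 with them.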
